A study of Homo sapiens with 4 samples.

Results

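The interferon regulatory factors, a family of transcription factors of innate immunity, were examined on 4 Clariom S microarrays (Affymetrix) of THP-1, a line of human monocytic leukaemia cells. The members were IRF1, IRF2, IRF3, IRF4, IRF5, IRF7, IRF8 and IRF9. A member was taken as the probe set whose annotation names that symbol alone, and each of the 8 genes had 1 such probe set among 17687 genes with a symbol. All cells had been given 100 ng/ml phorbol myristate acetate (PMA) for 2 days, which turns this line into macrophage-like cells, and then received a microRNA mimic in a cationic lipid for 24 h. The 4 groups were a negative control mimic, a let-7d-5p mimic, a miR-27b-3p mimic and a miR-151a-5p mimic, with 1 array each. The title of one sample reads let-7d-5p, but its treatment text and the series design read let-7a-5p, so it is referred to as the array labelled let-7d-5p. The source field names THP-1, while the characteristics field calls the cells lymphocyte-like. Of 10 monocyte and macrophage markers, 9 were above background on all 4 arrays (CD14, CD68, LYZ, CSF1R, SPI1, CD163, ITGAM, FCER1G and TYROBP), and the sum of the 10 log2 signals lay between 129.65 and 130.5. Of 7 T and NK cell markers 2, and of 5 measured B and plasma cell markers 3, were above background on all arrays; these were NKG7 and GNLY of the first list and CD79A, CD79B and PAX5 of the second. MS4A1, a surface marker of B cells, was at background on each array. The summed signals of these lists lay between 39.16 and 39.4 and between 28.71 and 30.03.

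Interferon regulatory factors share a DNA-binding domain at the amino end that reads repeats of GAAA in interferon-stimulated promoters. IRF3 lies ready in the cytoplasm and is phosphorylated by TBK1 after RNA or DNA of a pathogen is sensed. It then enters the nucleus and starts transcription of type I interferon. IRF7 is made mainly after interferon has acted and extends the response to the many interferon-alpha genes. IRF9 is the DNA-binding subunit of ISGF3, the complex that carries the signal of the interferon receptor to the nucleus. IRF1 is an activator induced by interferon-gamma, and IRF2 competes with it for the same sites. IRF5 serves inflammatory cytokine genes below Toll-like receptors, IRF8 directs the monocyte and dendritic cell lineages, and IRF4 acts in lymphocytes and in alternatively activated macrophages.

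The mature microRNAs are shown because the identity of one mimic differs between the labels. The sequences are from RefSeq (GRCh38.p14), 5′ to 3′, with the seed (bases 2 to 8) in capitals. The let-7d-5p gene copy lies at chr9:94178841-94178862 on the plus strand, and miR-27b-3p at chr9:95085505-95085525 on the plus strand. let-7a-5p is encoded by 3 genes, of which the one at chr9:94175962-94175983 lies on the plus strand.
hsa-let-7a-5p: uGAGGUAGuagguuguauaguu
hsa-let-7d-5p: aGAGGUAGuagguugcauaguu
hsa-miR-27b-3p: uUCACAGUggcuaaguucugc
The 2 let-7 sequences share the seed GAGGUAG and differ at 2 positions, U1A and U16C, counted from the 5′ end and written from let-7a-5p to let-7d-5p. miR-27b-3p carries another seed, UCACAGU.

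Values are log2 RMA signals, the scale on which the authors deposited them. A difference is the signal on a mimic array minus that on the control array, so that 1 stands for 2-fold. Signals are not compared between genes, because probe sets differ in brightness. Signals up to 5.34 were taken as background, since 95% of the signals of 349 olfactory receptor genes over the 4 arrays lay at or below this floor. With 1 array per group there is no replicate error and no p-value, and all 3 comparisons share the same control array. Each difference is instead set beside the central 95% of the differences of the 1000 genes nearest in mean signal, a spread among genes and not among cultures. On the control array 8 of 8 members were above the floor, and on each mimic array 7 of 8, with IRF3 below it. Of all 17687 genes, 11585 were above the floor on the control array. This count was 11615 on the array labelled let-7d-5p, 11673 with miR-27b-3p and 11636 with miR-151a-5p. The control array thus had the most members but the fewest of all genes above the floor.

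**Figure D1:**
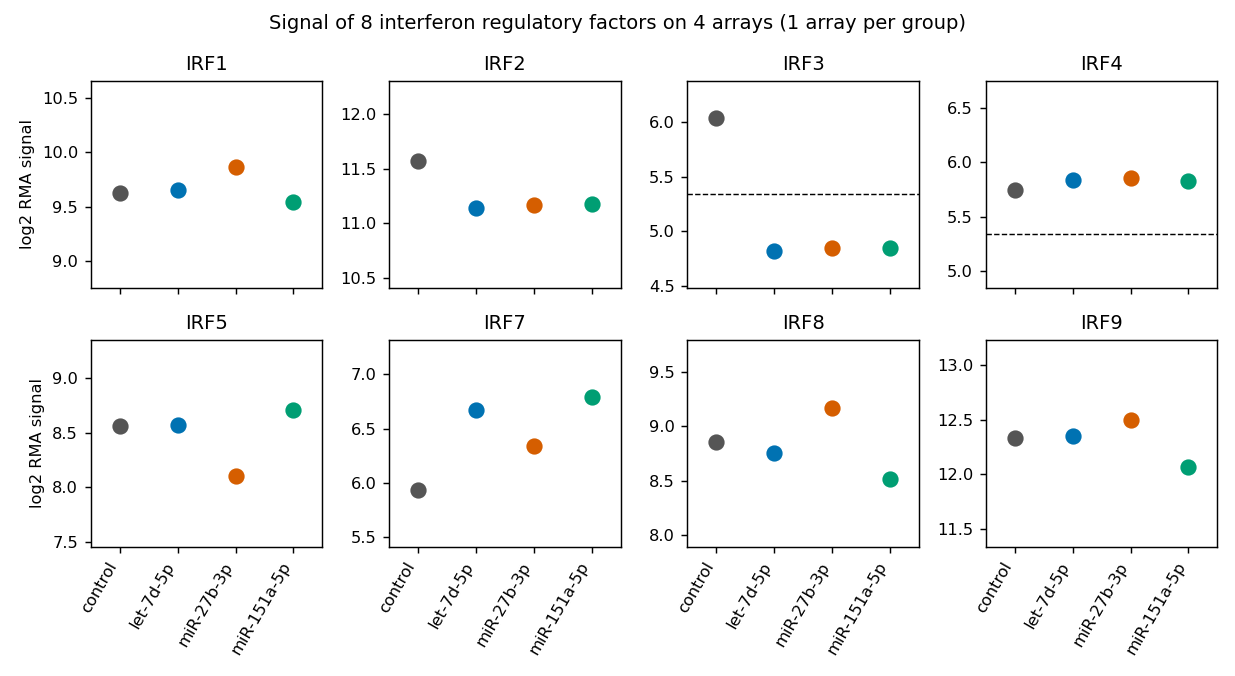
Signal of each member on the 4 arrays. Each panel is 1 gene, the y axis is the log2 RMA signal with the same span of log2 units in all panels but another centre, and each point is 1 array (grey for control, blue for the one labelled let-7d-5p, orange for miR-27b-3p, green for miR-151a-5p). The dashed line is the background floor of 5.34. IRF3 was above it on the control array alone, and IRF4 differed by 0.11 at most.

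IRF3, the constitutive factor that starts interferon transcription, was lower on all 3 mimic arrays and was the single member past 2-fold. Its signal was 6.04 on the control array, 4.82 on the array labelled let-7d-5p, 4.85 with miR-27b-3p and 4.85 with miR-151a-5p. The mimic arrays thus lay within 0.03 of each other and below the floor, while the control array lay above it. IRF3 was 2.33-fold lower on the array labelled let-7d-5p (-1.22), 2.28-fold lower with miR-27b-3p (-1.19) and 2.28-fold lower with miR-151a-5p (-1.19). In the same order, 0.407%, 0.503% and 0.328% of all genes were at least 2-fold lower. IRF3 ranked 16th, 23rd and 18th from the lowest difference among 17687 genes. The central 95% of genes of like signal ran from -0.73 to 0.78, from -0.72 to 0.79 and from -0.68 to 0.83. Because the mimic signals lie at background, the size of the difference is uncertain. With a pseudocount of 16 on the linear signal it was -0.89, -0.87 and -0.87, short of 2-fold, and with the other mimic arrays as the reference it was -0.03, 0.015 and 0.015. The difference from the control therefore rests on 1 array, and whether another control culture would give the same signal was not tested.

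IRF7, the interferon-inducible factor, was higher on all 3 mimic arrays. Its signal was 5.94 on the control array, 6.67 on the array labelled let-7d-5p, 6.34 with miR-27b-3p and 6.79 with miR-151a-5p, above the floor on each. The control array was the lowest and the miR-151a-5p array the highest. IRF7 was 1.66-fold higher with the mimic labelled let-7d-5p (0.73), 1.32-fold with miR-27b-3p (0.40) and 1.80-fold with miR-151a-5p (0.85). The first and the last lay above the central 95% of genes of like signal, whose upper bounds were 0.65 and 0.70, and the middle one lay inside it, below 0.80. The control signal of IRF7 was near the floor, so the size of these differences is uncertain too. With the pseudocount used for IRF3 they shrank to 0.61, 0.33 and 0.71, in the same order. The bounds above are for signals without the pseudocount. With the other mimic arrays as the reference IRF7 differed by 0.105, -0.39 and 0.285, so that its higher signal with miR-27b-3p turned to a lower one, and the difference from the control rests on the 1 control array here too. No member was at least 2-fold higher, where 0.588%, 0.605% and 0.972% of all genes were, in the same order of mimics. At 1.5-fold, IRF7 was the single member counted as higher, with the mimic labelled let-7d-5p (4.42% of all genes) and with miR-151a-5p (5.29%), and none was with miR-27b-3p (5.07%). IRF3 was the single member at least 1.5-fold lower on each array, beside 3.56%, 4.7% and 3.57% of all genes.

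IRF9, the interferon-dependent factor that acts with IRF7 in the same response, differed less. Its signal was 12.33 on the control array, 12.35 on the array labelled let-7d-5p, 12.50 with miR-27b-3p and 12.07 with miR-151a-5p. The control array and the array labelled let-7d-5p were 0.02 apart, and the miR-151a-5p array was lowest. Its differences of 0.02, 0.17 and -0.26 all lay inside the central 95% of genes of like signal. On the miR-151a-5p array IRF7 and IRF9 thus lay on opposite sides of the control.

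The antagonists IRF1 and IRF2 moved differently. IRF1 had a signal of 9.63 on the control array, 9.65 on the array labelled let-7d-5p, 9.87 with miR-27b-3p and 9.54 with miR-151a-5p, with differences of 0.02, 0.24 and -0.09. IRF2, the repressor of the pair, had signals of 11.57, 11.14, 11.17 and 11.18 in that order. The 3 mimic arrays of IRF2 lay within 0.04 of each other and were lower than the control by -0.43, -0.40 and -0.39, or 1.35-fold, 1.32-fold and 1.31-fold. This is the same arrangement as in IRF3, at a smaller size and well above background. It was inside the central 95% of genes of like signal, whose lower bounds were -0.46, -0.62 and -0.47. With the other mimic arrays as the reference IRF2 differed by -0.035, 0.01 and 0.025.

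IRF4 had the steadiest signal of the members. Its signals were 5.74 on the control array, 5.84 on the array labelled let-7d-5p, 5.85 with miR-27b-3p and 5.83 with miR-151a-5p. All lay close above the floor and within 0.11 of each other. They were below 6.27, the 99th percentile of olfactory receptor genes, so a steady level cannot be told from background. Of the 1000 genes of like signal, 1.3% had a smaller range over the 4 arrays, whereas 98.1% had a smaller range than IRF3 among its own 1000.

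IRF5 and IRF8, which serve the inflammatory and lineage programmes of macrophages, were ordered in opposite ways by miR-27b-3p and by miR-151a-5p. IRF5 had signals of 8.56 on the control array, 8.57 on the array labelled let-7d-5p, 8.10 with miR-27b-3p and 8.71 with miR-151a-5p. It was lowest with miR-27b-3p, 1.38-fold below the control (-0.46), and the other 3 arrays lay close together. IRF8 had signals of 8.86, 8.76, 9.17 and 8.52 in that order, highest with miR-27b-3p (0.31) and lowest with miR-151a-5p (-0.34). None of these differences from the control lay outside the central 95% of genes of like signal.

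**Figure D2:**
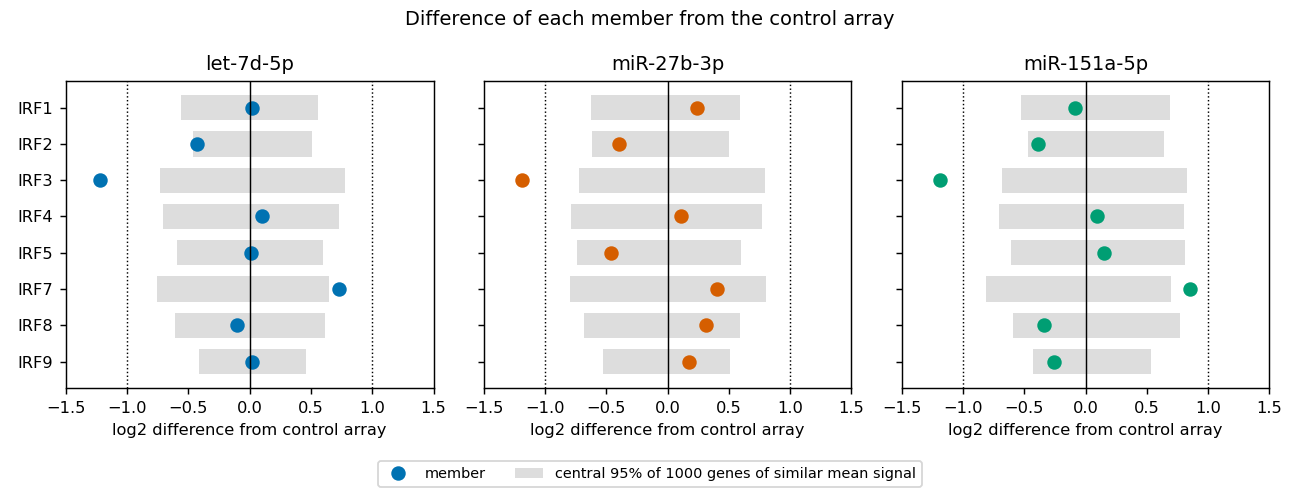
Log2 difference of each member from the control array (x axis, log2 units) on the 3 mimic arrays. Points are members, grey bars the central 95% of the differences of the 1000 genes nearest in mean signal, and dotted lines 2-fold. IRF3 lay outside its bar on each array, and IRF7 on the arrays labelled let-7d-5p (0.73) and miR-151a-5p (0.85).

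The miR-151a-5p array was also set against that of miR-27b-3p, which leaves out the control array. Of the pairs of mimic arrays, this one held the widest gap of a member. Against the array labelled let-7d-5p no member reached 1.5-fold. The widest there were IRF5 (-0.47) and IRF8 (0.41) with miR-27b-3p, and IRF9 (-0.28) with miR-151a-5p. On the miR-151a-5p array against that of miR-27b-3p, IRF5 was 1.53-fold higher (0.61) and IRF7 1.37-fold higher (0.45). IRF8 was 1.57-fold lower (-0.65), IRF9 1.35-fold lower (-0.43) and IRF1 1.26-fold lower (-0.33). IRF2, IRF3 and IRF4 differed by 0.01, 0.00 and -0.02. At 1.5-fold, 1 member was higher, IRF5, and 1 was lower, IRF8, where 6.18% of all genes were higher and 5.22% lower. All 8 lay inside the central 95% of genes of like signal. The widest gap, that of IRF8, was near the lower bound of -0.72. IRF3 and IRF2, which were lower than the control on all mimic arrays, differed by 0.01 at most between these arrays. IRF7, which was higher on all of them, differed by 0.45.

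**Figure D3:**
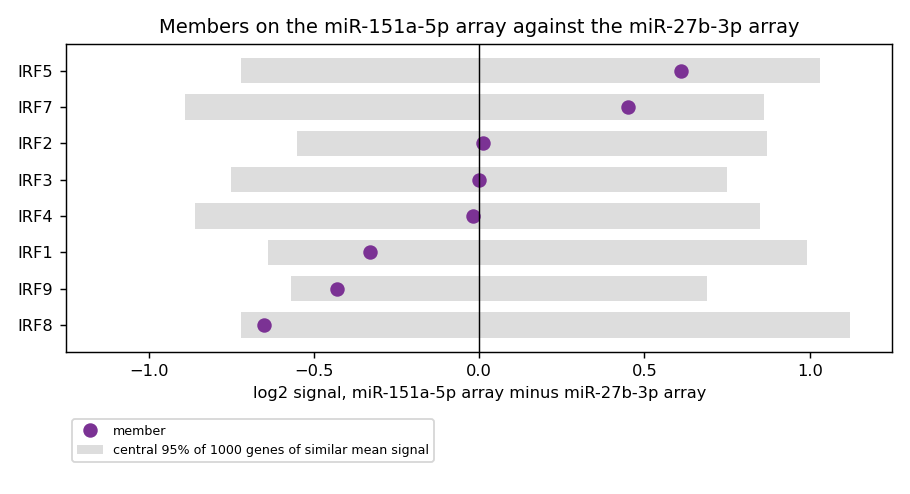
Log2 signal on the miR-151a-5p array minus that on the miR-27b-3p array (x axis, log2 units) for each member (points), ordered by size. Grey bars show the central 95% of the 1000 genes nearest in mean signal. IRF5 (0.61) and IRF8 (-0.65) stood at the ends, and all 8 points lay inside the bars.

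The promoters of members that differed between these arrays are shown, with the matches to 2 motifs in capitals. Of the 8 members, 5 had an entry in the RefSeq promoter table (GRCh38.p14): IRF1, IRF4, IRF5, IRF8 and IRF9, with 9 annotated starts in all. The 250 bases before each start were searched on both strands for the STAT site TTCNNNGAA, for the IRF core AANNGAAA and for the core of the interferon-stimulated response element, which is GAAA, any 2 bases and GAAA. The last contains the IRF core. Each line gives the 130 bases just before the start, 5′ to 3′ on the strand of the gene. They lie at chr5:132490774-132490903 (minus strand) for IRF1, chr14:24161135-24161264 (plus) for IRF9, chr16:85902700-85902829 (plus) for the first start of IRF8 and chr7:128940540-128940669 (plus) for 1 of the 4 starts of IRF5.
IRF1: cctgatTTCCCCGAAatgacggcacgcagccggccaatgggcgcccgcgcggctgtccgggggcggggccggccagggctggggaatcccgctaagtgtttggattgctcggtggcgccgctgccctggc
IRF9: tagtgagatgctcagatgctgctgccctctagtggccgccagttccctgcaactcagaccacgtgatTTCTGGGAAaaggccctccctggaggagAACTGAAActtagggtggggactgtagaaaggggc
IRF8: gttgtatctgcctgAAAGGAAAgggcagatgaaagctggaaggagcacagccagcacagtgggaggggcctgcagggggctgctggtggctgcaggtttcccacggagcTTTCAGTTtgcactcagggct
IRF5: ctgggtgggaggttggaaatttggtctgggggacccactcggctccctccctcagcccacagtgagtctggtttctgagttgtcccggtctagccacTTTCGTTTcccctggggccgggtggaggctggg
The STAT site was matched in IRF1, starting 124 bases before the start, and in IRF9, 63 bases before it. It was present in 6.57% of 35116 promoters. The IRF core was matched in IRF9, 35 bases before the start, in IRF8, 116 and 21 bases before the start, and in IRF5, 33 bases before the start shown. The other starts of IRF5 held none of the motifs. The second start of IRF8 shares its match, 206 bases upstream, with the first. Of all promoters, 20.3% held the IRF core. The full response element, present in 3.02% of all promoters, was matched in 0 of the 9, and IRF4 held none of the motifs. A match says that the letters are there, and binding was not measured.

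The nearest annotated protein-coding genes on either side of each member that had a probe set were examined, 16 in all, and 0 of them differed 2-fold from the control on any mimic array. BCL2L12, an apoptosis gene whose annotation overlaps that of IRF3, had a signal of 9.07 with the control mimic and of 9.15, 8.96 and 9.56 with the other mimics, in the order used above. SCAF1, on the other side of IRF3, had 7.20, 7.43, 7.57 and 7.38. Neither was lower with the mimics in the way IRF3 was. Next to IRF7, PHRF1 differed from the control by 0.10, -0.03 and -0.04 and CDHR5 by -0.19, 0.14 and -0.01. RNF31, a subunit of the linear ubiquitin ligase next to IRF9, read 8.55, 8.37, 9.08 and 8.80. SLC22A5, a carnitine transporter next to IRF1, was lower with each mimic, by -0.53, -0.35 and -0.38, while IRF1 itself was not. Of the other neighbours, FOXF1 beside IRF8 differed by -0.34, -0.11 and -0.31, REC8 beside IRF9 by 0.00, -0.44 and 0.16, and PRIMPOL beside IRF2 by 0.19, 0.27 and -0.12. DUSP22 and EXOC2 beside IRF4, KCP and TNPO3 beside IRF5, and COX4I1 beside IRF8 lay between -0.14 and 0.35, and ENPP6 beside IRF2 was below the floor on all arrays. The single neighbour at least 1.5-fold apart was IL5, beside IRF1 (0.57, 0.61 and 0.73), which was below the floor on all arrays.

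**Figure D4:**
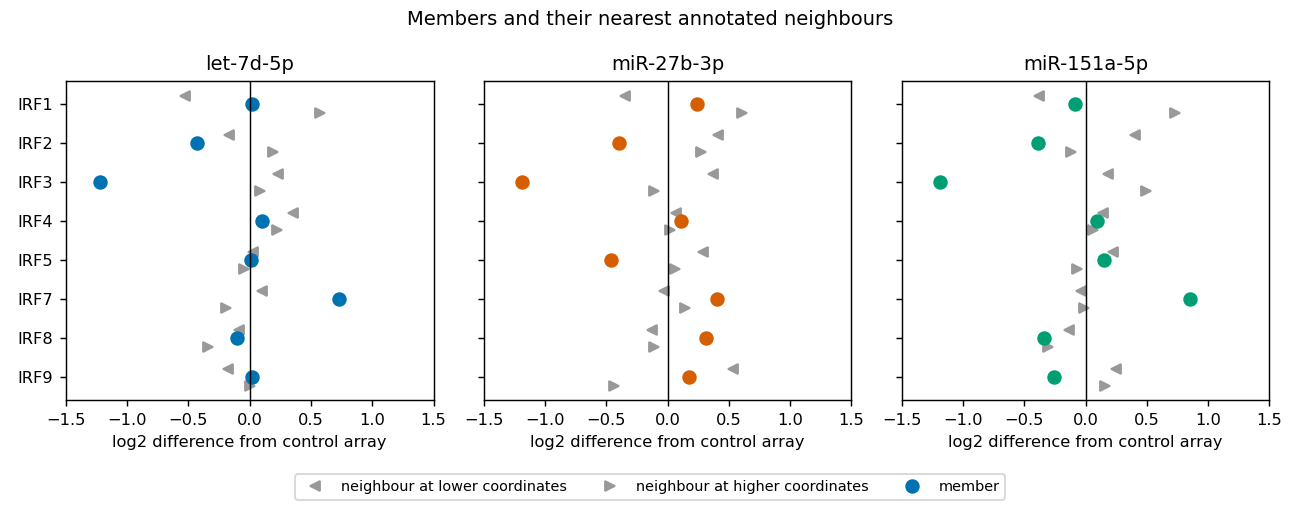
Log2 difference from the control array (x axis, log2 units) of each member (coloured points) and of its nearest measured neighbours at lower and higher coordinates (grey triangles) on the 3 mimic arrays. IRF3 lay at -1.22, -1.19 and -1.19, and its neighbours SCAF1 and BCL2L12 between -0.11 and 0.49.

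The genes whose 4 signals followed a member most closely were found by the root mean square distance of the centred log2 values, among genes with a mean above the floor. For IRF3 these were ABCG2, an efflux transporter (distance 0.12), ZNF774 (0.14) and FDXACB1 (0.16), of 11615 genes. ABCG2 read 7.19 with the control mimic and 6.14, 6.26 and 6.30 with the others, above the floor throughout. For IRF7 they were CD3E (0.05), USP18 (0.06) and STXBP5L (0.06), of 11614 genes. USP18, an interferon-induced protease that removes ISG15, read 11.42 with the control mimic and 12.11, 11.85 and 12.15 with the others, in the same order of arrays as IRF7. CD3E, a T cell receptor subunit, lay under the floor with the control mimic and with miR-27b-3p. Over 4 arrays such likeness is a description.

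Genes upstream of the factors were followed next, from lists chosen with earlier results of these data known. Of 20 measured sensors and adaptors (23 listed), 13 were higher and 7 lower on each mimic array, with medians of 0.10, 0.245 and 0.08 against 0, 0.01 and -0.01 for all genes. RIGI, IFIH1 and DHX58, the cytoplasmic receptors of viral RNA, had the largest mean differences. RIGI read 11.77 with the control mimic and 12.70, 12.74 and 12.43 with the others. IFIH1 differed by 0.72, 0.63 and 0.53 and DHX58 by 0.64, 0.64 and 0.28. Of the list, 2 genes were at least 2-fold higher, both on the miR-27b-3p array, and 0 were 2-fold lower. TLR7 (1.32) and TLR8 (1.15) were these 2, receptors of RNA in endosomes, and relative to miR-27b-3p they were at -1.30 and -2.04 with miR-151a-5p.

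Kinases and scaffolds that activate the factors were centred near 0, with medians of -0.04, 0.10 and -0.02 over 17 measured genes (19 listed). TBKBP1, a scaffold of the kinase that phosphorylates IRF3, read 8.51 with the control mimic and 7.77, 8.06 and 7.46 with the others, and on the miR-151a-5p array (-1.05) it was the single gene of this list past 2-fold. IKBKG, the regulatory subunit of the IkB kinases, differed by -0.34, -0.71 and -0.66, and JAK2, a kinase of cytokine receptors, by 0.72, 0.56 and 0.12. DNA-binding partners and coactivators held no gene past 2-fold (17 measured of 20 listed), with medians of -0.04, 0.05 and 0.03. BATF, which binds DNA together with IRF4 and IRF8, differed by -0.32, -0.37 and -0.43, and IRF2BP1, a corepressor of IRF2, by -0.22, -0.73 and -0.23, with the miR-27b-3p signal (5.29) below the floor. KAT2B, an acetyltransferase, differed by -0.16, -0.48 and -0.16.

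Negative regulators of the factors and of interferon signalling also had no gene past 2-fold (19 measured of 22 listed), and their medians were -0.01, 0.09 and -0.18. The largest mean differences were in USP18 (0.69, 0.43 and 0.73), in OTUB2, a deubiquitinase (-0.43, -0.62 and -0.52), and in NLRX1, a mitochondrial protein that restrains MAVS (-0.45, -0.30 and -0.68). Of 19 measured type I and III interferon genes (20 listed), 2 were above the floor on any array. IFNA14 read 6.38 with the control mimic and 5.78, 5.98 and 6.11 with the others, and IFNL3 was at 6.45, 6.44, 6.12 and 6.57. Interferon genes have near-identical copies, so that single members are uncertain. The 6 receptor chains differed by 0.26 at most upward (IFNGR1 and IFNAR1 with miR-27b-3p) and by -0.45 downward (IFNLR1, below the floor on all arrays), with medians of -0.045, 0.175 and 0.01.

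Target genes were grouped by the factor they are known for, and a gene can stand in several groups. The target lists, here and below, were also chosen with earlier results of these data known. Their directions are therefore a description and carry no independent weight. Of 28 targets of IRF3, IRF7 and ISGF3, 27, 25 and 25 were higher on the 3 mimic arrays in turn. The medians were 0.555, 0.355 and 0.345, against 0, 0.01 and -0.01 for all genes. At least 2-fold higher were 5, 3 and 1, and 0 were 2-fold lower. CXCL10, a chemokine, read 10.98 with the control mimic and 12.89, 12.88 and 12.35 with the others. IFIT2, an antiviral protein, differed by 1.12, 1.13 and 0.80 and TNFSF10, a death receptor ligand, by 0.78, 1.24 and 0.71. RSAD2, HERC5 and CMPK2, antiviral genes of the same list, were also higher with each mimic. RSAD2 differed by 1.14, 0.64 and 0.86, HERC5 by 1.13, 0.77 and 0.81, and CMPK2 by 1.02, 0.94 and 0.76. The median of the list was 0.13, -0.02 and -0.12 with the other mimic arrays as the reference, so that these differences too rest on the 1 control array. On the miR-151a-5p array against that of miR-27b-3p, IRF7 differed by 0.45, IRF9 by -0.43 and IRF3 by 0. Against the control, the median of the list was 0.345 with miR-151a-5p and 0.355 with miR-27b-3p. Between these mimic arrays, single genes of the list differed from -0.53 (CXCL10 and TNFSF10) to 0.93 (PMAIP1). Similar medians thus do not mean that the genes were alike on both. Whether these factors set the levels of the listed genes was not tested.

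Of 26 measured targets of IRF1 (27 listed), 23, 22 and 21 were higher, with medians of 0.27, 0.27 and 0.205. With the other mimic arrays as the reference the medians were 0.0475, 0.025 and -0.1425. The higher signals of this list therefore rest on the 1 control array too. IRF1 itself differed by 0.24 at most, and a link between it and these genes was not tested. GBP5, a guanylate-binding protein, differed by 0.80, 0.96 and 0.39, CXCL11, a chemokine, by 0.47, 0.50 and 0.80, and IDO1, which degrades tryptophan, by 1.43, 0.68 and 0.42 from a control signal of 5.27, below the floor. At least 2-fold higher were 2, 2 and 1 genes of this list. Apart from IDO1 these were IL15 and CIITA, which were below the floor on all arrays and carry no usable difference. TAP1, a peptide transporter and a target of IRF1, read 11.11 with the control mimic and 11.32, 11.15 and 10.26 with the others. On the miR-151a-5p array it was lower (-0.85).

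Targets of IRF5, IRF8 and IRF4 were examined in the same way. The 9 measured targets of IRF5 (11 listed) had medians of 0.10, 0.25 and 0.18. At least 1.5-fold higher were 0, 3 and 1 of them, beside 4.42%, 5.07% and 5.29% of all genes. At least 1.5-fold lower were 0, 0 and 1. The 3 with miR-27b-3p were CXCL8, CCL3 and IL6, the last below the floor on all arrays. CXCL8, a neutrophil chemokine, read 13.61 with the control mimic and 14.15, 14.52 and 14.38 with the others, and CCL3 differed by -0.27, 0.77 and 0.43. Both were highest on the miR-27b-3p array. IRF5 was lowest on that array, and a relation between them was not tested. IL1B, the inflammasome cytokine, differed by 0.26, 0.25 and 0.09. The 15 measured targets of IRF8 (16 listed) had medians of 0.09, 0.07 and 0.03, with CIITA again the 1 gene past 2-fold, and the 12 targets of IRF4 had medians of -0.05, -0.095 and -0.125. KLF4, a monocyte transcription factor that stands in both groups, differed by -0.27, -0.74 and -0.25. CLEC4A, a lectin in the IRF8 group, differed by 0.71, 0.44 and 0.12 and was above the floor on 1 array, and FAS, the death receptor, read 5.26 with the control mimic, below the floor, and 5.48, 5.33 and 5.67 with the others. In the IRF4 group ZBTB46, a dendritic cell factor, differed by -0.36, -0.21 and -0.29, and CCL17 by 0.25, -0.01 and 0.31 near the floor.

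**Figure D5:**
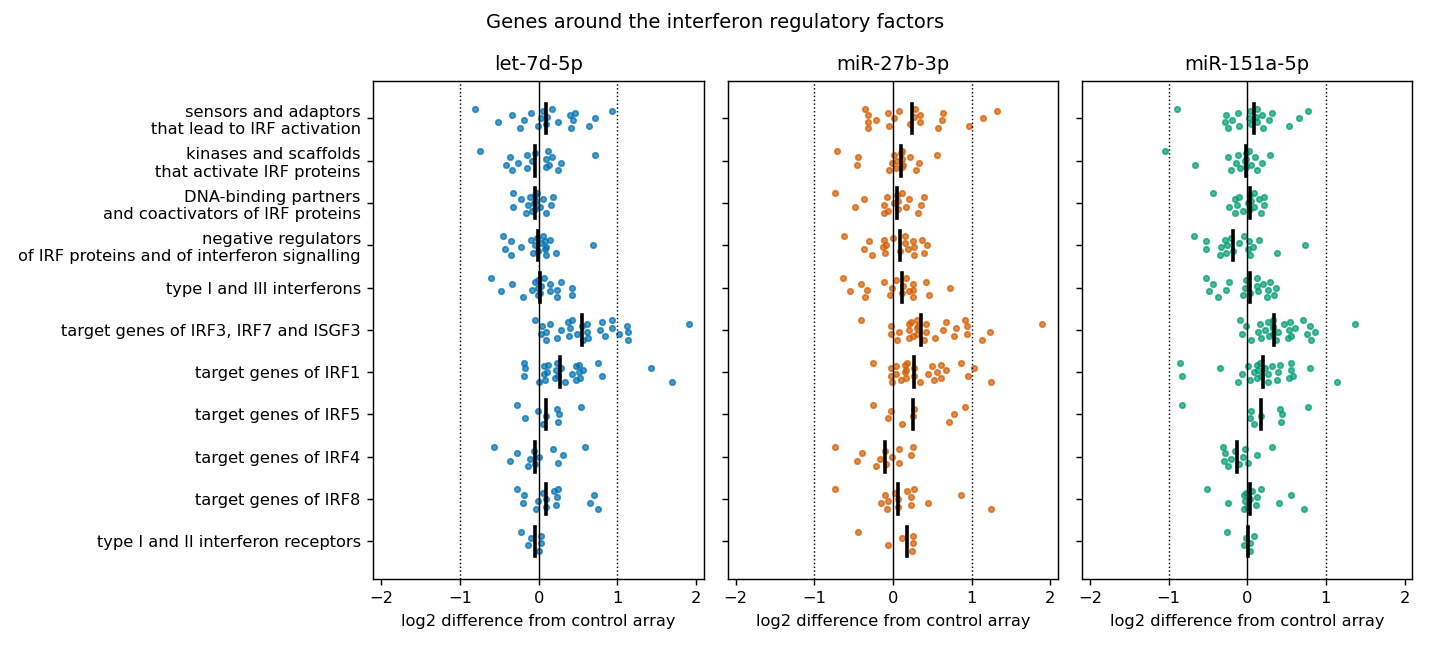
Log2 difference from the control array (x axis, log2 units) of the measured genes of each list on the 3 mimic arrays. Points are genes, black bars the medians of the lists, and dotted lines 2-fold. The targets of IRF3, IRF7 and ISGF3 had the highest medians on each array (0.555, 0.355 and 0.345). The lists were chosen with earlier results of these data known, so their order is a description.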

How the data were processed

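Gene expression was measured on 4 Human Clariom S arrays, 1 per group. The log2 signals deposited by the authors had been made with RMA (background correction, equalization between arrays and summary of probes) in Transcriptome Analysis Console 4.0, per the submitters' processing notes, a procedure that hides any shift shared by every gene of an array. For the probe sets, a genome build is not given in the sources used. The table held 21448 probe sets, of which GEO's platform annotation gave 17709 a single symbol, 3739 no symbol and 0 more than one. Where probe sets shared a symbol, the brightest by mean signal stood for the gene. The labels name Trizol and the methods an RNeasy kit for extraction.

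Differences, counts past 2-fold and medians were computed in Python 3.11.15 with numpy 2.4.6 and pandas 2.3.3, after a check on simulated data. Precision is limited by the number of arrays, and no p-value could be had from 1 per group. The members and lists were chosen with earlier results of these data known. Named genes were the members, the 3 genes above the floor on at least 1 array with the largest absolute mean difference in each list, such genes past 2-fold on at least 2 mimic arrays, the neighbours, and the 3 genes closest to IRF3 and IRF7. TLR7, TLR8, TAP1, RSAD2, HERC5, CMPK2, PMAIP1, IL15, CIITA, IL6 and 2 receptor chains were named after their values were seen. The shorter IRF core and the comparisons between mimic arrays were added after seeing the data. The pair shown in full was the one with the widest gap of a member. A planned comparison of protein sequences was not made.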

Additional observations from a re-analysis of the deposited data

How the results depend on the processing

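Quantile normalization, lowess (span 0.3) and median centring left all 24 member differences within 0.1 log2 units. All counts of members past 2-fold stayed as they were. RMA had already equalized the arrays, whose medians lay between 6.89 and 6.93, so these settings could change little. The mean of probe sets could not change any member, because each had 1 probe set. With a pseudocount of 16, 5 of 24 differences moved by more, and the count of members 2-fold lower was 0 in place of 1 on each mimic array. That count was also 0 at 3-fold, with the other mimic arrays as the reference, and when members had to exceed the 99th percentile of olfactory receptor genes (6.27) on either array. With the other mimic arrays as the reference, 15 of 24 differences moved, IRF7 with miR-27b-3p turned from 0.40 to -0.39, and IRF3 changed sign to 0.015 on the miR-27b-3p and on the miR-151a-5p array. At 1.5-fold, 1 member was higher with the mimic labelled let-7d-5p and 1 with miR-151a-5p. Under the stricter floor 5 members were above background on the control array in place of 8, and 6 on each mimic array. For miR-151a-5p against miR-27b-3p, 1 member in place of 2 passed 1.5-fold with the pseudocount. Of 33 list medians, 1 moved with the pseudocount and 11 with the other mimic arrays as the reference. No paired analysis was possible because each group held 1 array.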
